A study of Anolis carolinensis with 142 samples.

Results

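The liver libraries of male and female green anoles (*Anolis carolinensis*) were compared, 8 males against 8 females, with time of day as a covariate. They are the 16 liver libraries, of 142 libraries in the series, whose titles carry Midday or Midnight. The study took 24 free-living adult lizards, caught in the breeding season, and assigned them at random to Midday, Midnight or ALAN (artificial light at night), 4 males and 4 females each, and sequenced RNA of brain, eye, liver, dorsal skin, ventral skin and testes or ovary. The groups compared here were 4 males and 4 females dissected at Midday, and 4 males and 4 females dissected at Midnight under red torch light. All were labelled wild type and of a single batch, and each library came from 1 animal, so the p-values measure the spread between animals. The sexes also differed in size, with a snout-vent length of 52 to 69 mm (average 62) in the males of the whole study and of 51 to 57 mm (average 55) in its females, so sex and body size cannot be told apart. The 8 ALAN livers were left out of the comparison because their counts are of another class: among low counts (1 to 20), even numbers made up 61.6% to 63.8% in the 16 livers, against 41.1% to 44.0% in the ALAN livers.

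The liver makes most plasma proteins and handles lipids, steroids and foreign compounds. In egg-laying vertebrates the liver of breeding females also makes yolk proteins under the control of oestrogen and releases them into the blood for the growing eggs. In the green anole males are the sex with unlike sex chromosomes (X and Y) and females carry a pair of X chromosomes, and linkage group b, a microchromosome, is known as the X. The deposited counts carry Ensembl gene IDs that could not be paired with gene names, so genes are described by position, level and behaviour across tissues, and no yolk protein, hormone receptor, enzyme or cell type marker is named.

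Total counts per library ran from 17129400 to 28371289. Midday male 1 held 39.1% and the other livers 44.8% to 55.3% of their counts in 342 genes enriched in liver, a list made from these same libraries (CPM, counts scaled to a common library total, averaging 5 or more and 8-fold or more over each other tissue). Midday male 1 stood apart from the other 15. Its median correlation with them was 0.865 on log2 CPM, against 0.911 to 0.941 for the others, and it had 13597 genes with at least 1 CPM, against 11543 to 12365. It also held 0.200% of its counts in skin-enriched genes, against at most 0.0879% in the others, and 0.0874% in eye-enriched genes, against at most 0.0426%. The part of these in its high genes was not tested. The share of counts in the 10 highest genes was 33.6% ± 4.76 in males and 30.1% ± 3.00 in females (SD, n = 8 each; adjusted p = 0.198, exact permutation test within time of day, two-sided, adjusted over 3 measures of the libraries). Without Midday male 1 that difference was 4.98 percentage points (adjusted p = 0.0135, the same exact test). The share of counts in mitochondrial genes was 2.35% ± 0.451 in males and 2.04% ± 0.278 in females, and the number of genes with at least 1 CPM was 12114 ± 646 in males and 11792 ± 202 in females (SD, n = 8 each), with an adjusted p of 0.198 for both in that exact test.

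Male and female livers differed in 997 of the 14989 genes tested, 6.65%, by edgeR's quasi-likelihood test at an adjusted p under 0.05. Of these, 500 were higher in males (3.34% of the genes tested) and 497 were higher in females (3.32%). The median absolute log2 change was 1.44 among genes higher in males and 0.70 among genes higher in females, and the absolute log2 change reached 1 in 363 genes higher in males and 127 higher in females. Per kb of exon, the genes higher in males had a median level of 2.11 CPM per kb in males and 0.694 in females. The genes higher in females had a median of 11.7 CPM per kb in males and 21.2 in females, and all genes tested had 4.32 in males and 4.18 in females. The 8 males lay wholly above the 8 females for 83 of the genes called higher in males and wholly below them for 66 of those called higher in females. Over all genes tested, the sexes did not overlap in these directions for 0.554% and 0.467%, 1.02% together. The genes higher in males varied more among males (median SD of log2 CPM 0.68) than the genes higher in females did (0.37 in males and 0.38 in females). Among females the genes higher in males had 0.50, and genes not called had 0.52 in males and 0.45 in females. Genes of few counts have the larger error, and Midday male 1 was the highest male for 169 of the 500. How often it was the highest male over all genes tested was not counted. The part of low counts or of this library in the spread was not tested.

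**Figure D1:**
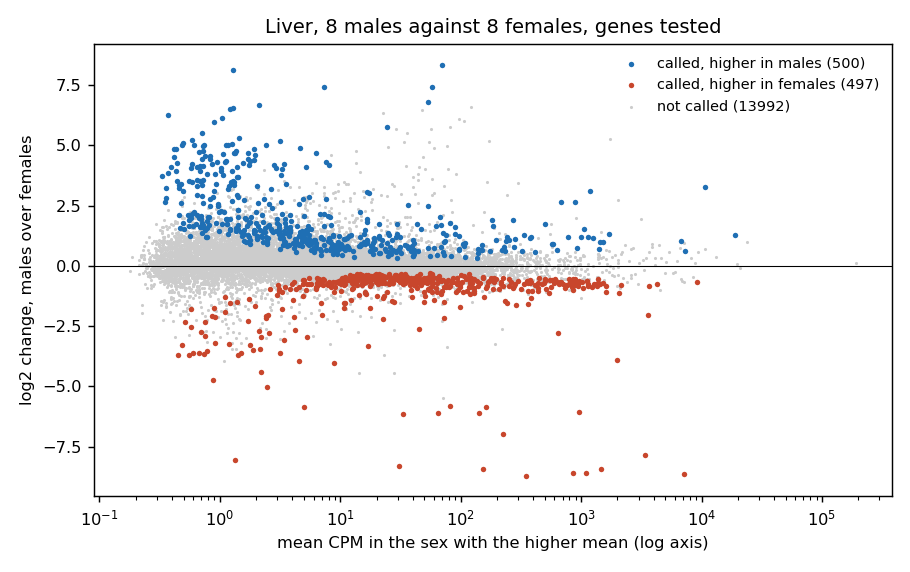
Log2 change of males over females against the mean CPM in the sex with the higher mean (log axis), 1 point per gene tested in the 16 livers. The 500 genes called higher in males (blue) include many at low levels with large changes, and the 497 called higher in females (red) lie mostly at higher levels and nearer to 0, apart from a small set below -5.

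Without Midday male 1, 489 genes were higher in males and 440 in females, of which 395 and 398 were also called with all 16 livers. The groups then did not overlap for 91 of the 500 and 117 of the 497. Leaving out a library can only keep or raise such counts, and the share over all genes tested was not taken without it. Without Midday female 2, 305 genes were higher in males and 367 in females. The split between the sexes also moved with the scaling: library totals alone gave 340 genes higher in males and 511 higher in females, and TMM factors computed without the genes holding over 1% of a library gave 455 and 597. In bulk tissue a change in the number of cells of a type and a change in RNA per cell cannot be told apart.

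A log2 change of at least 5 was found in 23 genes higher in males and of -5 or lower in 18 genes higher in females. Liver was the tissue of highest mean for 17 of the 18. They were chosen by this change, so their values are a description. Their summed level was 21.2 to 95.3 CPM in the 8 males. In females it was 60694, 24843, 13447 and 8807 CPM at Midday (replicates 1 to 4) and 727, 10014, 9835 and 850 CPM at Midnight. Every female was above every male, and Midnight females 1 and 4 were far below the other 6 females. The sexes did not overlap for 11 of the 18 genes, and for these 11 the highest female was 11.3 to 413 times the lowest female, with a median of 68.9. Over the 8 females, the correlation of the other 17 genes with ENSACAG00000040254, described next, on log2 CPM, had a median of 0.894 and a lowest value of -0.067, a description of libraries that share depth and composition. In the 8 ALAN livers the summed level was 44.1 to 88.1 CPM in males and 1002 to 20330 CPM in females.

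ENSACAG00000040254 had the largest difference in mean CPM of the genes higher in females without overlap. It has 7 exons on scaffold GL343194.1, from 9765976 to 9768632 on the plus strand, with coordinates as the deposited table gives them. In males it had 19.9, 20.2, 17.2 and 18.1 CPM at Midday and 6.25, 4.92, 16.8 and 5.33 CPM at Midnight. In females it had 21928, 14395, 7450.1 and 5017 CPM at Midday and 53.1, 4109, 4053 and 149 CPM at Midnight. The lowest female was above the highest male, and Midnight females 1 and 4 were the lowest females. The log2 change was -8.62 ± 0.97 (SE; adjusted p = 2.82e-04, edgeR). The change did not pass the test of a difference between Midday and Midnight (interaction log2 1.48, adjusted p = 0.893, edgeR). At Midnight alone it was -7.88 (adjusted p = 0.122, edgeR). It was also higher in females in brain (log2 -3.56, adjusted p = 0.00809), eye (log2 -5.08, adjusted p = 0.0127) and ventral skin (log2 -7.40, adjusted p = 0.0254), by edgeR, and its log2 value of 0.86 in dorsal skin did not pass the test (adjusted p = 0.871). The difference between the log2 change in liver and that in brain was -5.09 (adjusted p = 0.0303, edgeR), and with a block for each treatment, sex and replicate number it was -4.34 (adjusted p = 0.197, edgeR). Over all libraries of a tissue, ALAN included, its mean level was 0.232 CPM in testes and 17.1 CPM in ovary (n = 12 each). In brain it was 1.54 CPM in females and 0.139 CPM in males, and in eye 4.46 and 0.128 CPM. Ventral skin had 53.3 ± 153 CPM in females (SD, n = 11), up to 513 CPM in a single library, and 0.398 CPM in males. These levels lie far below the 5536 CPM of female livers.

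ENSACAG00000042524, of the same scaffold (9729277 to 9733749, minus strand, 2 exons), had the largest absolute log2 change among the genes higher in females without overlap and with at least 10 CPM. In males it had 1.60, 0.979, 1.13 and 0.883 CPM at Midday and 0.497, 0.404, 0.781 and 0.179 CPM at Midnight. In females it had 972, 574, 294 and 251 CPM at Midday and 15.9, 309, 367 and 22.3 CPM at Midnight. As for ENSACAG00000040254, Midnight females 1 and 4 were the lowest females and were still above every male. The log2 change was -8.70 ± 0.78 (SE; adjusted p = 2.71e-05, edgeR). The difference from the brain did not pass the test (log2 -6.88, adjusted p = 0.194, edgeR). Brain held almost none of it, with 0.107 CPM in females and 0.0174 CPM in males (n = 12 each, ALAN included). That test therefore cannot tell whether the sex difference is shared. The gene did not pass the filter in brain, eye or dorsal skin alone. In ventral skin it was higher in females (log2 -7.84, adjusted p = 0.0254, edgeR), with up to 27.3 CPM in a single female library.

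**Figure D2:**
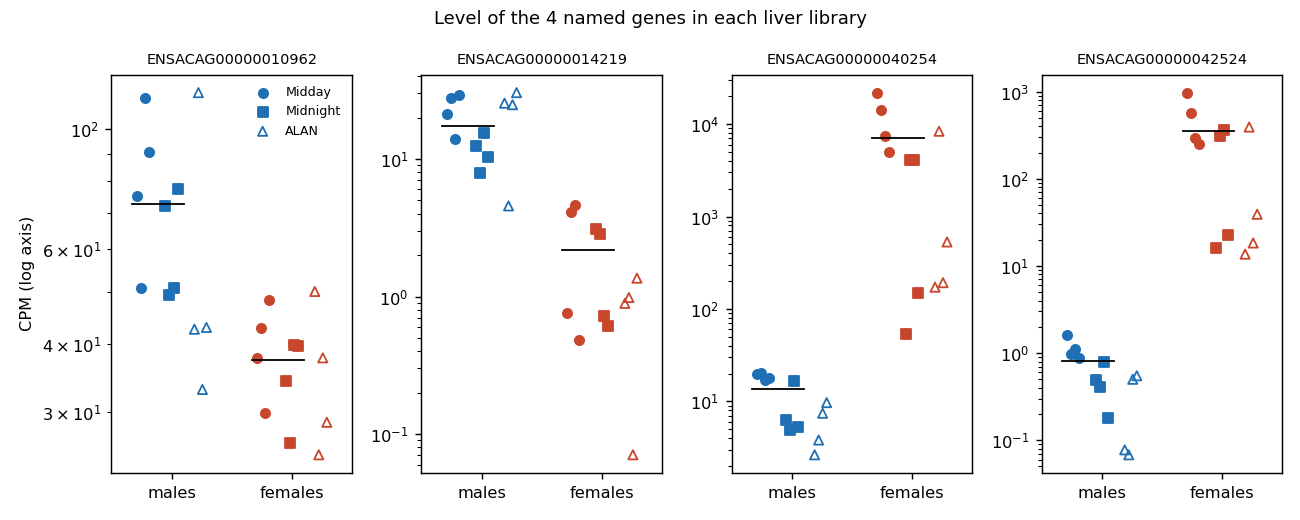
Level of each named gene in every liver library (CPM, log axis), males left and females right in each panel. Circles are Midday, squares Midnight and open triangles ALAN libraries, and the line is the mean of the 8 Midday and Midnight libraries of a sex. Males lie above females without overlap in the first 2 panels and below them in the last 2, when ALAN is left aside.

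Some of the called genes were neighbours. Called genes of the same direction with gaps of at most 100 kb were joined, and 11 runs of 3 or more genes (42 genes) were higher in females and 6 (22 genes) were higher in males. Because the runs were drawn from the called genes, their changes are a description. A run could span genes that were not called, as on GL343417.1, where 3 of 17 genes tested were called. On linkage group b a run higher in males (1595171 to 1777887) overlapped a run higher in females (1721876 to 1871400). The number of runs among as many genes drawn at random was not taken. On GL343194.1, from 9704600 to 9768632, all 4 genes tested were higher in females and include both genes named above. Their summed level was 6.20 to 25.6 CPM in males, with a median of 20.3, and 104 to 25340 CPM in females, with a median of 5606. Of the 4, a gene of 84 bases had no count in any male. Elsewhere on this scaffold a pair at 5214472 to 5221370 and 5228703 to 5237695 had log2 changes of -8.42 and -8.57. On GL343690.1, from 185136 to 206291, all 4 genes tested were higher in females (log2 -6.14 to -5.82) without overlap. Their sum was 0.881 to 8.35 CPM in males (median 4.23) and 11.7 to 1625 CPM in females (median 177). On chromosome 4, genes at 133667571 to 133679733 and 133686867 to 133690250 had log2 changes of -7.84 and -8.44, but the sexes overlapped. For the first the range was 0.286 to 10.3 CPM in males and 2.16 to 21670 CPM in females. Close copies of a gene in a cluster may share reads, because the treatment of reads that map to several places is not given in the sources used here.

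A gene on chromosome 5 (24247817 to 24270982, minus strand, 10 exons) and a gene on chromosome 1 (1646467 to 1679110, plus strand, 8 exons) differed in liver and not detectably in brain. The chromosome 5 gene had 7.76 to 26.5 CPM in males and 137 to 2010 CPM in females, which is -6.05 ± 0.41 on the log2 scale (SE) with an adjusted p of 1.33e-06 in edgeR. Brain gave a log2 of -0.15 (adjusted p = 0.641, edgeR), and the difference between the tissues was -5.94 on the log2 scale (adjusted p = 2.06e-11, edgeR). The chromosome 1 gene had 0 to 0.294 CPM in males and 8.20 to 92.7 CPM in females, which is -8.29 ± 0.63 on the log2 scale (SE) with an adjusted p of 4.66e-06 in edgeR, against 0.51 in brain (adjusted p = 0.204), with a difference of -8.87 (adjusted p = 2.06e-11, edgeR). With a block for each treatment, sex and replicate number the differences between the tissues were -5.73 and -8.62 (adjusted p = 2.30e-07 for both, edgeR). These 2 genes were chosen after their values were seen. In the 8 ALAN livers the log2 change was nearer to 0 for both. It was -4.33 for the chromosome 5 gene (adjusted p = 0.0885, edgeR) and -3.29 for the chromosome 1 gene (adjusted p = 0.333, edgeR).

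**Figure D3:**
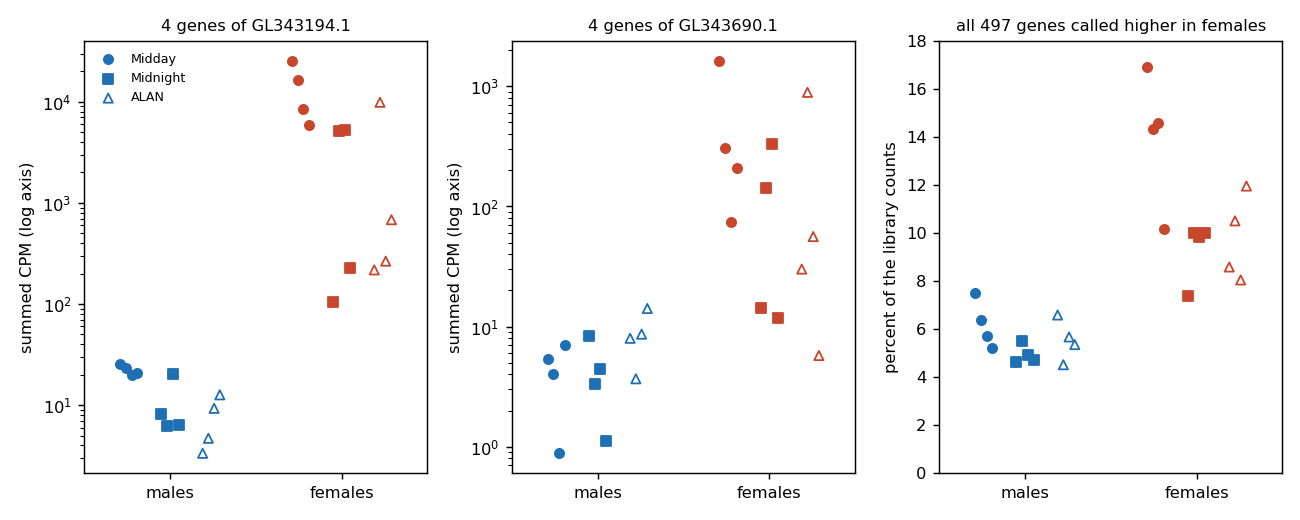
Summed CPM (log axis) of the 4 genes of the run on GL343194.1 and of the run on GL343690.1, and the percent of each library's counts in the 497 genes called higher in females, with males left and females right. On GL343194.1 every female, ALAN included, lies above every male, whereas on GL343690.1 ALAN female 4 (5.74 CPM) and Midnight female 4 (11.7 CPM) lie below ALAN male 4 (14.1 CPM).

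The 497 genes higher in females held 4.64% to 7.52% of the counts in males and 7.36% to 17.0% in females, and the lowest female value was that of Midnight female 1. The 500 genes higher in males held 4.64% to 13.0% in males and 2.46% to 4.06% in females. Midday male 3 (12.7%) and Midnight male 4 (13.0%) stood above the other males, which had at most 6.16%. Ventral skin was the tissue of highest mean for 17.9% of the genes higher in females, against 5.80% of all genes tested, and ovary for 38.2%, against 30.5%.

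On the male side, ENSACAG00000010962 had the largest difference in mean CPM without overlap. It lies on chromosome 1 (5643356 to 5731042, minus strand, 17 exons). In males it had 75.0, 50.9, 114 and 90.8 CPM at Midday and 71.9, 49.4, 50.9 and 77.5 CPM at Midnight. In females it had 37.7, 42.8, 29.9 and 48.3 CPM at Midday and 34.2, 26.3, 39.9 and 39.8 CPM at Midnight. The lowest male, 49.4 CPM, was just above the highest female, 48.3 CPM, and the log2 change was 1.00 ± 0.18 (SE; adjusted p = 0.00416, edgeR). Neither brain (log2 0.36, adjusted p = 0.628, edgeR) nor the difference between liver and brain (log2 0.61, adjusted p = 0.292, edgeR) passed the test. By edgeR the gene also did not pass in eye (log2 0.83, adjusted p = 0.612), dorsal skin (log2 4.50, adjusted p = 0.0636) or ventral skin (log2 3.37, adjusted p = 0.269). Its mean level was 32.3 CPM in testes and 1.21 CPM in ovary (n = 12 each).

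ENSACAG00000014219 had the largest log2 change among the genes higher in males without overlap and with at least 10 CPM. It lies on linkage group b (82959 to 141724, plus strand, 23 exons). In males it had 21.2, 27.7, 14.0 and 29.1 CPM at Midday and 12.4, 7.92, 15.5 and 10.4 CPM at Midnight. In females it had 0.759, 4.09, 4.65 and 0.487 CPM at Midday and 3.11, 2.87, 0.718 and 0.611 CPM at Midnight. The log2 change was 3.03 ± 0.46 (SE; adjusted p = 0.00170, edgeR), and the lowest male was 7.92 CPM against a highest female of 4.65. Brain showed a log2 of -0.05 (adjusted p = 0.815), and the difference between liver and brain was 3.05 (adjusted p = 1.58e-04, edgeR). With a block for each treatment, sex and replicate number that difference was 3.265 (adjusted p = 0.00280, edgeR). By edgeR the gene did not pass the test in eye (log2 -0.29, adjusted p = 0.404), dorsal skin (log2 1.27, adjusted p = 0.170) or ventral skin (log2 1.38, adjusted p = 0.161). Testes held 552 ± 68.1 CPM of it (SD, n = 12). The liver difference between the sexes was 2.74% of that level.

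Of the genes higher in males, 147 were enriched in testes. The list held 984 genes by the rule given above, 487 of them were tested in liver, and 6 were called higher in females. That is 30.2% of the tested list genes higher in males and 1.23% higher in females, against 3.34% and 3.32% of all genes tested. Among the 83 genes higher in males without overlap, 68 were of this list, which made up 3.25% of all genes tested. The filter asked for a minimum count in only as many libraries as the smallest group held. A list gene could therefore be tested on its level in male livers alone, and the number of such genes was not counted. The shares among tested genes depend on this filter, and over the whole list 147 of 984 were called higher in males. The 147 genes, chosen by their difference between the sexes, had a median of 1.08 CPM in male livers, 0.0909 CPM in female livers and 749 CPM in testes. Their difference between male and female livers was 0.108% of the level in testes at the median, with quartiles of 0.0963% and 0.131% and a range of 0.0668% to 2.38%. The share of a library's counts in the whole list overlapped between the sexes, with 0.173% to 0.279% in males (median 0.215%) and 0.182% to 0.234% in females (median 0.191%). The number of list genes with a count did not overlap, with 752 to 856 in males and 544 to 692 in females. That number also rises with the library total, which was 24378008 to 28371289 in males and 17129400 to 27807424 in females. The number of all genes with a count was not compared between the sexes. Of the 984 genes, 11 had no count in any of the 16 livers. Without Midday male 1, 154 genes of the list were called higher in males. The part of RNA from testes in these differences was not tested.

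Ovary-enriched genes gave a smaller count. Of 385 such genes, 277 were tested, and 8 were called higher in males (2.89%, against 3.34% of all genes tested) and 27 higher in females (9.75%, against 3.32%). These shares depend on the filter in the same way, as a gene could be tested on its level in female livers alone. The share of counts in the whole list overlapped between the sexes, with 0.0796% to 0.134% in males (median 0.0908%) and 0.0858% to 0.171% in females (median 0.103%). The 27 genes differed between the sexes by a median of 0.181% of their level in ovary. With both gonad lists left out of the count, 345 genes were higher in males and 464 in females.

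The 353 genes higher in males that were not of the testes list had a median log2 change of 1.14 and a median of 8.58 CPM in males. Midday male 1 was the highest male for 146 of them, a number that was not taken over all genes tested. Among the genes higher in males, 8 had a log2 change of at least 3 and a mean of at least 10 CPM in males. For 3 of the 8 (chromosome 4 at 131362800, chromosome 6 at 78796369 and chromosome 1 at 218840300), Midday male 1 had 547, 453 and 424 CPM, against a median over the 8 males of 0.459, 0.639 and 0.547 CPM. Without that library 5 of the 8 were called. Of the 3 genes, those on chromosomes 6 and 1 had their highest tissue mean in eye, and that on chromosome 4 in liver. A gene on GL343233.1 (1426861 to 1437692) had 1527 to 37640 CPM in males (median 2745) and 391 to 2635 CPM in females, and a gene on chromosome 2 (77232043 to 77331728) had 186 to 4710 CPM in males (median 451) and 19.2 to 285 CPM in females. Midnight male 4 was the highest in both. On GL343432.1, 4 of the 7 genes tested between 2782 and 195068 were higher in males (log2 1.18 to 1.32), with a sum of 2755 to 8859 CPM in males and 1208 to 2957 CPM in females. On chromosome 1, 4 of 6 genes between 6274739 and 6439689 were higher in males (log2 0.56 to 1.05), with 5969 to 10390 CPM in males and 2249 to 6977 CPM in females.

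Linkage group b held the highest share of called genes among the 20 chromosomes, linkage groups and scaffolds with at least 40 tested genes. Of its 60 genes tested, 4 were higher in males and 17 were higher in females, 35.0% in all, against 6.65% of all genes tested. The median log2 change of its 60 genes was -0.15, against 0.05 over all genes tested. The 17 genes had log2 changes of -0.36 to -0.96, with a median of -0.62. They were in part neighbours: between 1721876 and 1871400, 7 of 13 genes tested were higher in females, with a sum of 68.3 to 101 CPM in males and 107 to 158 CPM in females, which did not overlap. The 4 genes higher in males were ENSACAG00000014219 and genes starting at 1595171, 1658933 and 1770360, with log2 changes of 1.51, 1.04 and 0.78. The last had 183 to 512 CPM in males and 137 to 192 CPM in females, and was higher in females in brain (log2 -0.21, adjusted p = 0.00204, edgeR), as was the gene at 1658933 (log2 -0.28, adjusted p = 0.0136, edgeR). Without Midday male 1, 3 genes of b were higher in males and 14 in females. Without any 1 of Midday females 2, 3 and 4, only 2 were higher in males.

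Of the 17 genes of b higher in female liver, 16 were also called higher in females in brain, 14 in eye, 4 in dorsal skin and 2 in ventral skin. None of the 17 differed between liver and brain in the test of the difference, where 3.28% of all genes tested did. At that share, 0 of 17 genes cannot tell whether the difference is the same in both tissues. In brain, 1 gene of 62 tested on b was higher in males and 33 were higher in females, in eye 1 and 21 of 62, in dorsal skin 0 and 5 of 62, and in ventral skin 0 and 2 of 60. The same animals gave these tissues. On scaffold GL343338.1, 10 of 42 genes tested (23.8%) were called, all higher in females, and on GL343282.1 1 gene was higher in males and 8 in females of 58 (15.5%). GL343194.1, with the genes of largest change, had 6 of 54 (11.1%), all higher in females. Chromosomes 1 to 6 had 6.07% to 7.64% of their tested genes called.

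**Figure D4:**
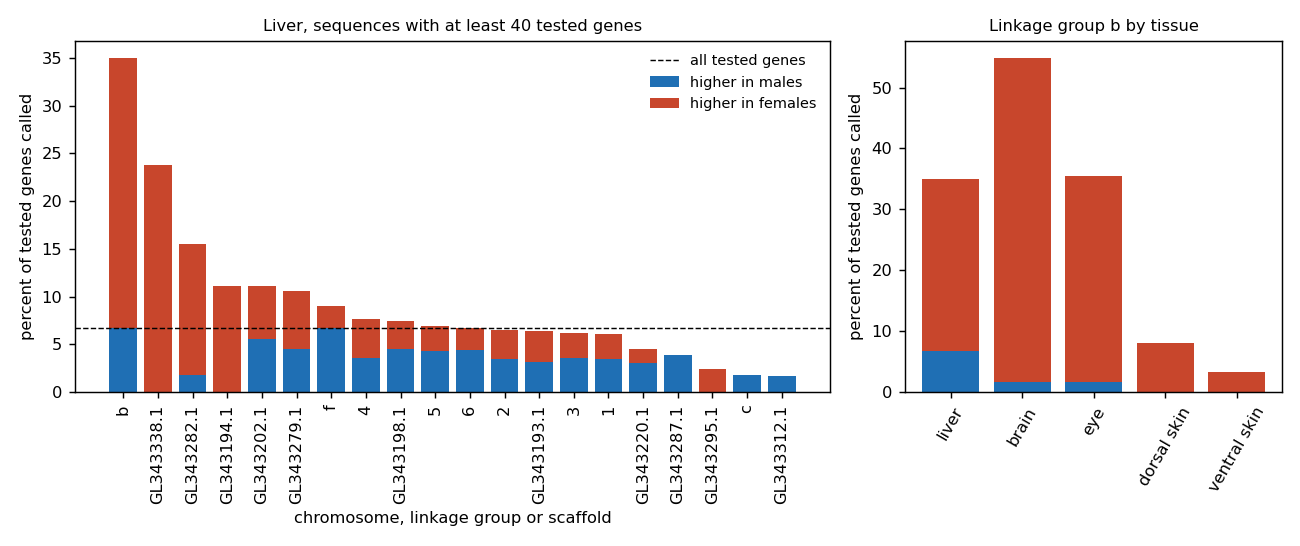
Percent of tested genes called on each sequence with at least 40 tested genes in liver (left, dashed line at 6.65% for all genes tested) and on linkage group b in 5 tissues (right), with genes higher in males in blue and genes higher in females in red. Linkage group b stands at 35.0% in liver and 54.8% in brain, against 6.65% and 1.73% of all genes tested there.

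Against the 997 genes of liver, edgeR at the same threshold called 105 in eye, 292 in brain, 24 in ventral skin and 130 in dorsal skin. Brain libraries were all of the class of the 16 livers, whereas 7 of 8 eye and 3 of 8 dorsal skin libraries of each sex were of the class of the ALAN livers, as was 1 ventral skin library of a male. Of the liver genes higher in males, 466 were tested in brain and 71 were called higher in males there, against 0.766% of all genes tested in brain. Among the 71, 65 were of the testes list. Dorsal skin gave 35 of 493 (against 0.352% of all genes tested there), 29 of them of the testes list. Eye gave 12 of 458 (against 0.203%), 10 of them of the list, and ventral skin 0 of 494 (against 0.0233%). Of the liver genes higher in females, 468 were tested in brain and 55 were called higher in females there, against 0.968% of all genes tested. Eye gave 35 of 463 (against 0.444%), dorsal skin 26 of 477 (against 0.411%) and ventral skin 14 of 484 (against 0.117%). Higher in females in all 5 tissues were 4 genes, with starts at 2156558 on b, 932607 and 1469671 on GL343282.1 and 779889 on GL343417.1, and their log2 changes in liver were -0.72, -0.61, -1.10 and -0.82. In a single fit of 16 liver and 16 brain libraries, the sex difference itself differed between liver and brain for 584 of 17795 genes (3.28%). That fit took no account of an animal giving both tissues, and with a block for each treatment, sex and replicate number 229 genes differed. Among the genes called in liver the difference passed for 181 of 496 higher in males and 241 of 496 higher in females (71 and 131 with the block). The same liver libraries chose these genes, so a share above 3.28% follows in part from the choice.

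The 8 ALAN livers, of animals that the comparison did not use, gave values for the same genes. They were dissected at night under light, with totals of 12196415 to 14697867 counts. On their own edgeR called 0 of 12982 genes (0%) between the sexes, whereas DESeq2 called 553, and 1645 had an unadjusted edgeR p under 0.05 (12.7%). Of the 500 genes higher in males, 385 were tested there, and 361 of these had a higher value in ALAN males, where 53.4% of all genes did. Of the 497 genes higher in females, 470 were tested there, and 440 of these had a higher value in ALAN females, where 46.6% of all genes did. The filter again asked for a minimum count in only as many libraries as the smallest group held. A gene could therefore be tested there on its level in the higher sex alone, which favours the same side. The number of such genes was not counted, and the shares given here depend on this filter. An unadjusted p under 0.05 on the same side was reached by 163 of the 385, against 6.96% of all genes tested, and by 205 of the 470, against 5.72%. On the opposite side it was reached by 0 of either. The 4 ALAN males lay wholly above the 4 ALAN females for 78 of the 385 genes, against 2.4% of all genes tested, and wholly below them for 130 of the 470, against 3.45%. The median log2 change of the 385 genes was 1.18 in the 16 livers and 0.81 in the ALAN livers, and that of the 470 genes was -0.69 in the 16 livers and -0.46 in the ALAN livers. ALAN male 1 held 0.634% of its counts in testes-enriched genes, against 0.180% to 0.249% in the other ALAN livers, and without it 329 of 387 and 433 of 477 genes were on the same side. Without ALAN female 2 edgeR called 9 genes, 6 of them among the 997 and on the same side.

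For the named genes the ALAN values were as follows. ENSACAG00000040254 had 2.64, 3.81, 7.43 and 9.68 CPM in ALAN males and 172, 8379, 192 and 530.4 CPM in ALAN females (log2 -8.32, adjusted p = 0.139, edgeR). ENSACAG00000014219 had 25.4, 4.56, 24.8 and 30.3 CPM in ALAN males and 0.892, 0.984, 0.0707 and 1.36 CPM in ALAN females (log2 4.79, adjusted p = 0.0885, edgeR). Neither gene's groups overlapped. ENSACAG00000042524 ran from 0.0680 to 0.549 CPM in ALAN males and from 13.7 to 392 CPM in ALAN females (log2 -8.31, adjusted p = 0.129, edgeR). ENSACAG00000010962 overlapped, with 33.0 to 117 CPM in ALAN males and 25.0 to 50.1 CPM in ALAN females (log2 0.82, adjusted p = 0.530, edgeR). On linkage group b, 0 of 56 genes were called, 14 had an unadjusted p under 0.05, and 16 of the 17 genes higher in females lay on the female side.

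**Figure D5:**
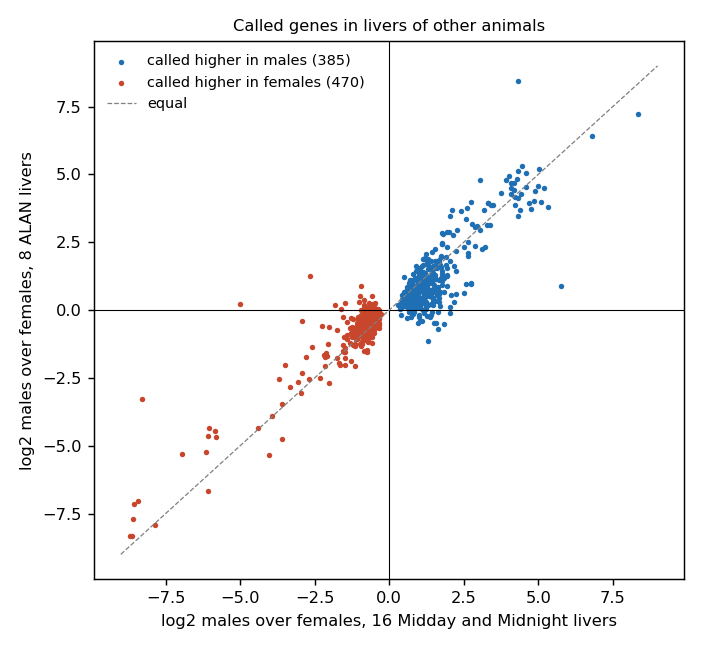
Log2 change of males over females in the 8 ALAN livers against that in the 16 Midday and Midnight livers, for the genes called in the 16 and tested in both (385 higher in males, 470 higher in females). The dashed line marks equal changes, and 361 and 440 of the points lie on the same side of 0 in both.

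Whether the sex difference itself changed between Midday and Midnight was tested by the interaction term. edgeR called 0 of 14989 genes (0%), whereas DESeq2 called 7, and 893 had an unadjusted edgeR p under 0.05. At Midday alone (4 males, 4 females) 73 of 13845 genes differed between the sexes (0.527%), and at Midnight alone 8 of 13917 did (0.0575%). Of the 73 genes, 60 were tested in the other animals of Midnight, 58 were on the same side there, and 49 of them had an unadjusted p under 0.05, against 12.5% of all genes tested at Midnight. The filter at Midnight also let a gene be tested on its level in a single sex, which favours the same side.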

How the data were processed

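The authors deposited a table of raw counts, 1 column per library and 1 row per Ensembl gene ID. The tools listed in the submitters' processing notes are featureCounts, Subread, STAR 2.7.11a, Trimmomatic and FastQC, in no stated role. No genome build, annotation release, strand setting or rule for reads that map to several places is named (not given in the sources used here), and overlapping, antisense and closely related genes may share reads. None of the 26479 IDs (0) was found among 27148 RefSeq genes of assembly rAnoCar3.1. The gene lists and cell type markers planned by name were therefore not run, and the labelled tissue could not be checked against named markers.

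Counts were tested with edgeR 4.0.16 in R 4.3.3 (TMM, filterByExpr on time by sex, robust quasi-likelihood fit, Benjamini-Hochberg adjustment over all genes tested, threshold 0.05). Log2 changes are males over females. Their SE was derived from the test, as the absolute log2 change divided by the square root of edgeR's F statistic. Of 23539 genes with a count, 14989 passed the filter. CPM are counts scaled to a common library total, and correlations used log2 CPM with a prior count of 2. Up to 2 IDs per direction were named among called genes whose 8 males and 8 females do not overlap: the gene of largest difference in mean CPM, then the gene of largest absolute log2 change with a mean of at least 10 CPM in the higher sex. The comparison, the lists and the tests were chosen with earlier results of these data known. The edgeR procedure was tested on simulated data. Alternatives were RLE factors, library totals, TMM without the highest genes, no filter, DESeq2 1.42.0, a replicate block, no time term, each time alone, all 24 livers, a minimum log2 change of 1 and each library left out. Leaving out gonad-enriched genes was added after seeing the data. The 16 livers held 17129400 to 28371289 counts each, and genes of few counts have the larger error. Same-numbered males and females were not paired (0 of 8 pairs correlated over 0.1). Python 3.11.15, pandas 2.3.3 and matplotlib 3.10.9 served for tables and figures.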

Additional observations from a re-analysis of the deposited data

Results flagged for a closer look

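For independent groups of normally distributed values, chance flags about 1 in 20 groups of this size. The values here were CPM without a log and gene numbers, and groups shared libraries, so that rate need not hold. Of 36 groups of 4 livers, 5 held a library whose gap to the nearest other exceeded Dixon's critical value, each on the high side. ENSACAG00000010962 had 117 CPM in ALAN male 2, against at most 43.0 CPM in the other ALAN males. ENSACAG00000040254 had 16.8 CPM in Midnight male 3, against at most 6.25 CPM in the other Midnight males. In ALAN female 2 the same gene had 8379 CPM, against at most 530.4 CPM in the other ALAN females, and ENSACAG00000042524 had 392 CPM, against at most 39.1 CPM. Midnight male 4 had 12365 genes with at least 1 CPM, against at most 11705 in the other Midnight males.

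The sex difference differed between liver and brain for 2 of the 4 named genes. The difference of the log2 changes was 3.05 for ENSACAG00000014219 (adjusted p = 1.58e-04, edgeR), with 8 of 8 males above every female in liver. It was -5.09 for ENSACAG00000040254 (adjusted p = 0.0303, edgeR), with 8 of 8 males below every female in liver. With a block for each treatment, sex and replicate number, the former was 3.265 (adjusted p = 0.00280, edgeR) and the latter was -4.34 (adjusted p = 0.197, edgeR).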

How the results depend on the processing

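The 997 genes (500 higher in males, 497 higher in females) became 1851 by DESeq2 (996 and 855), 2124 with all 24 livers (1158 and 966), 73 at Midday alone (45 and 28), 8 at Midnight alone (2 and 6) and 490 with an absolute log2 change of at least 1 (363 and 127), the times alone having fewer samples. RLE factors gave 1013, library totals 851, TMM without the highest genes 1052, no filter 827 and no time term 922. With single livers left out the total ran from 672 to 1000, the genes higher in males from 305 to 493 and those higher in females from 365 to 534. On linkage group b DESeq2 called 7 genes higher in males, and leaving out livers gave 2 to 5, against 14 to 17 higher in females.

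DESeq2 called 7 genes for sex by time, and leaving out livers gave 0 to 1, the 1 without Midday male 4. In ALAN livers DESeq2 called 553 genes, no filter gave 5, and leaving out livers gave 0 to 9. For liver against brain DESeq2 called 1109, and leaving out libraries gave 474 to 784. The share of counts in the 10 highest genes differed by 2.84 to 4.98 percentage points with livers left out, passing the test without Midday male 1.

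Replicate numbers did not pair males with females (r of -0.156 to 0.100 over 8 pairs, and 0 of 8 males closest to its own number). With a block for each replicate number within time of day, 749 genes were called in liver (348 higher in males, 401 higher in females). The block of liver against brain was another, for each treatment, sex and replicate number, so that it joined the tissues of an animal, and gave 229. The cause of these shifts was not tested.

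None of the 4 named genes changed direction under any alternative. ENSACAG00000010962 and ENSACAG00000014219 missed the threshold at Midday alone and at Midnight alone, and the other 2 at Midnight alone. Depth limits the genes under 1 CPM, many of the testes list, to few counts per library.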
